A study of Mus musculus with 12 samples.

Results

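Mouse primordial germ cell-like cells (PGCLCs) labelled OE were compared between day 6 and day 2 of embryoid body culture, across all genes measured. The members are 4 of the 12 libraries of the study: 2 from day 6 OE and 2 from day 2 OE. PGCLCs are made in culture from pluripotent stem cells and stand in for primordial germ cells, the embryonic precursors of sperm and eggs. All libraries came from male J1 embryonic stem cells grown as embryoid bodies, which are floating cell aggregates. Cells carrying CD61 (integrin beta 3, the product of Itgb3) and the surface sugar SSEA1 were sorted from them, and poly(A)-enriched RNA was sequenced. The labels give OE and EV without spelling them out. They are read here as Tex10 overexpression and empty vector, and the labels name no treatment, promoter or clone for either. The EV cells, with 2 libraries at day 6 and 2 at day 2, give the same day comparison without any library in common. The remaining libraries, all of day 2, were treated with DMSO or with dTAG13, a degrader of tagged proteins. They enter the tests only through the filter and the shared estimate of spread. Nothing in the labels says that the 2 libraries of a group came from separate cultures, so p-values may measure technical spread only.

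As background, a germ cell fate in mice is set by BMP signals acting on cells leaving pluripotency, which switch on Prdm1, Prdm14 and Tfap2c. Germ cells then lose most of their DNA methylation, and genes for meiosis and for the PIWI-piRNA pathway, held silent until then, become active in the gonad. Tex10 is a nuclear protein known both as part of the rixosome, a complex that matures the large ribosomal subunit, and as a factor in embryonic stem cell pluripotency. The comparison asks how the transcriptome of Tex10 overexpressing PGCLCs changed over these days.

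Of 12955 genes in the table, 12059 reached 1 FPKM (fragments mapped to a gene, scaled to its transcript length and to the library's total) in at least 2 of the 12 libraries and were tested. A linear model in limma was fitted to log2(FPKM + 1) over all 6 groups of the study, and genes were called at a Benjamini-Hochberg adjusted p under 0.05. Changes are day 6 minus day 2 on that scale, which understates the change of genes with few FPKM. Between day 6 OE and day 2 OE, 2115 genes rose (17.5% of those tested) and 1775 fell (14.7%). Of these, 1092 rose and 482 fell by at least 1 log2 unit, and 32 rose and 9 fell by at least 3. Over all genes tested the median change was 0.08. Quantile normalization moved that median to -0.04, and the smaller changes below are read against it. Some families moved further, and upward. The median of 84 cytosolic ribosomal protein genes went from -0.20 to 0.05, and that of 38 proteasome subunit genes from -0.55 to -0.27. The size of modest falls can therefore depend on the scaling. Rises were commoner among weakly expressed genes and falls among strong ones. A gene near 0 at day 2 can pass the filter through its day 6 values and has no room to fall. Of 4306 genes averaging under 5 FPKM over the 4 OE libraries, 933 rose and 164 fell. Of 4383 genes averaging 20 FPKM or more, 563 rose and 1297 fell. Counts for gene lists and families below are to be read beside the shares over all genes, 17.5% higher and 14.7% lower.

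Replicates lay close, with Pearson's r across genes of 0.995 in day 6 OE and 0.996 in day 2 OE. Both day 6 OE libraries exceeded both day 2 OE libraries for 5552 of the 12059 genes tested. Lack of overlap between the days is therefore common and adds little to a call. The matching count for genes lower at day 6 is not given here. Lower values in both day 6 libraries, where stated below, are therefore descriptions and not further support. Day 6 OE libraries had 11240 and 11277 genes at 1 FPKM or more, and day 2 OE libraries had 10453 and 10418. Sequencing depth is not given, so the precision of low values is unknown. A library outside this comparison, replicate 1 of the day 2 group treated with dTAG13, listed 2008 genes at 0 and widened the shared estimate of spread. Without it, 4000 genes rose (33.2%) and 3096 fell (25.7%) in OE, and these included every one of the 3890 calls given above. The number of calls depends on each OE library: 1940 were made without day 2 OE replicate 1, 2506 without day 2 OE replicate 2, 2204 without day 6 OE replicate 1 and 1932 without day 6 OE replicate 2. Genes named below whose call was lost in this way are given with the range of their adjusted p over those 4 fits. In bulk RNA, fewer cells of a type and less RNA per cell cannot be told apart.

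**Figure D1:**
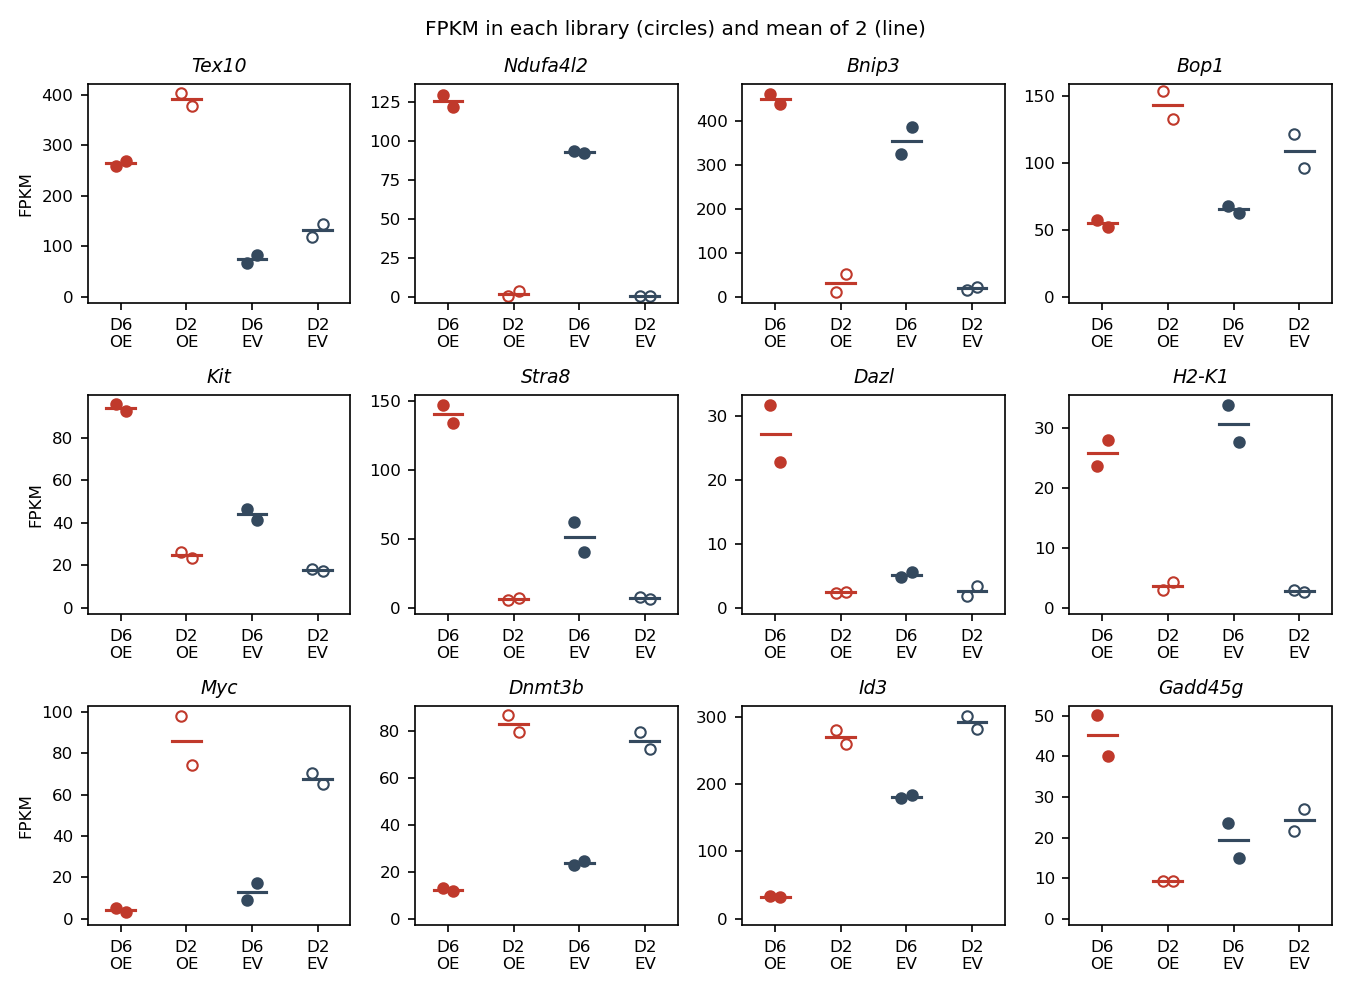
FPKM of 12 genes (vertical axes, linear, each with its own scale) in each library of day 6 OE, day 2 OE, day 6 EV and day 2 EV. Circles are libraries, filled for day 6 and open for day 2, and lines are means of 2. Both day 6 OE libraries lie above both day 2 OE libraries for Ndufa4l2, Bnip3, Kit, Stra8, Dazl, H2-K1 and Gadd45g, and below them for Tex10, Bop1, Myc, Dnmt3b and Id3.

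Tex10 RNA fell between the days in the cells that overexpress it. Tex10 (chr4:48430858-48473459, minus strand, mm10) had 259 and 269 FPKM in day 6 OE, against 403 and 378 FPKM in day 2 OE, with a log2 change of -0.56 (SE 0.15, adjusted p = 0.0156). In EV it had 65.7 and 81.5 FPKM in day 6 EV, against 119 and 145 FPKM in day 2 EV, and the OE libraries stayed above the EV libraries of the same day. The day changes in OE and EV, -0.56 and -0.83, were not shown to differ (difference 0.27, adjusted p = 0.729). Of 7 genes in the list, Tex10 included, 0 rose and 4 fell, with a median of -0.57 against 0.08 for all genes, and after quantile normalization 1 rose and 3 fell. With 1 OE library left out 1 or 2 fell. Wdr18, a scaffold of the complex, had 80.6 and 72.9 FPKM in day 6 OE, against 213 and 162 FPKM in day 2 OE, with a log2 change of -1.27 (SE 0.13, adjusted p = 0.000132). Mdn1, the large ATPase that the complex brings to the ribosome precursor, fell by 0.74 (adjusted p = 0.0128) and Las1l, its nuclease subunit, fell by 0.54 (adjusted p = 0.0391). The calls of Tex10, Las1l and Mdn1 were lost with 1 OE library left out (adjusted p 0.0521 to 0.103 for Tex10, 0.0727 to 0.219 for Las1l and 0.0449 to 0.0969 for Mdn1).

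Itgb3, whose protein the cells were sorted on, rose at the RNA level. It had 3.46 and 4.39 FPKM in day 6 OE, against 1.04 and 0.756 FPKM in day 2 OE, with a log2 change of 1.37 (SE 0.29, adjusted p = 0.00564), and adjusted p was 0.0236 to 0.0538 with 1 OE library left out. Among 12 genes for adhesion and migration, 6 rose and 0 fell (median 0.54). Itgav, the alpha chain that pairs with integrin beta 3, had 9.19 and 10.5 FPKM in day 6 OE, against 2.06 and 2.67 FPKM in day 2 OE, with a log2 change of 1.69 (SE 0.23, adjusted p = 0.000569). Itga5, the fibronectin receptor alpha chain, rose by 0.82 (adjusted p = 0.00505). Without any 1 of the OE libraries 2 to 4 of these 12 genes were called.

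Genes of germ cell specification split. Among 16 genes, 5 rose and 6 fell, with a median of -0.01. With 1 OE library left out 3 to 5 rose and 4 to 6 fell, and 3 rose in each case but that without day 2 OE replicate 1. The receptor gene Kit, needed for germ cell survival and migration, rose most, and the germ cell factors Nanos3, Rhox6 and Rhox9 fell. Kit (chr5:75574916-75656722, plus strand, mm10) had 96.03 and 92.6 FPKM in day 6 OE, against 26.3 and 23.2 FPKM in day 2 OE, with a log2 change of 1.89 (SE 0.15, adjusted p = 3.65e-05). Prdm14, which represses somatic genes and de novo methylation in germ cells, had 35.3 and 36.6 FPKM in day 6 OE, against 19.1 and 19.01 FPKM in day 2 OE, with a log2 change of 0.88 (SE 0.14, adjusted p = 0.00149). Alpl, the tissue-nonspecific alkaline phosphatase used to stain primordial germ cells, had 294 and 292 FPKM in day 6 OE, against 178 and 168 FPKM in day 2 OE, with a log2 change of 0.76 (SE 0.12, adjusted p = 0.00157). For these 3 genes the days did not overlap, which also held for many other genes tested. The 2 other founding factors showed no call: Prdm1 had 5.63 and 4.08 FPKM in day 6 OE, against 4.11 and 3.75 FPKM in day 2 OE (0.24, adjusted p = 0.434), and Tfap2c had 52.1 and 49.1 FPKM in day 6 OE, against 51.1 and 36.97 FPKM in day 2 OE (0.21, adjusted p = 0.42). Both genes had overlapping days.

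Nanos3, an RNA-binding protein that protects germ cells from death, had 3.89 and 2.84 FPKM in day 6 OE, against 18.5 and 10.99 FPKM in day 2 OE, with a log2 change of -1.82 (SE 0.30, adjusted p = 0.00148). Its day 2 OE replicates lay far apart, yet both stood above day 6. Dppa3 (Stella), which guards against loss of methylation at imprinted loci in the early embryo, had 21.2 and 20.4 FPKM in day 6 OE, against 41.8 and 33.6 FPKM in day 2 OE, with a log2 change of -0.82 (SE 0.19, adjusted p = 0.00824), and its call was lost with 1 OE library left out (adjusted p 0.0184 to 0.0834). Ifitm3 (Fragilis), an early surface marker of germ cell competence, had 305 and 250.03 FPKM in day 6 OE, against 708 and 607 FPKM in day 2 OE, with a log2 change of -1.24 (SE 0.13, adjusted p = 0.000133). Lin28a, the let-7 inhibitor that acts ahead of Prdm1, had 9.48 and 9.76 FPKM in day 6 OE, against 40.8 and 38.1 FPKM in day 2 OE, with a log2 change of -1.93 (SE 0.22, adjusted p = 0.000203). All 3 were lower at day 6 in both libraries. Rhox6 and Rhox9, close homeobox copies on the X chromosome whose reads may be shared, fell by 2.26 (adjusted p = 0.00338) and by 1.49 (adjusted p = 0.00458, and 0.0103 to 0.0542 with 1 OE library left out).

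Most genes of later germ cells that were tested rose. They are the meiosis, piRNA and RNA-binding genes that are silent in most tissues. Of 30 tested, 18 rose and 1 fell, shares of 60.0% and 3.33%, with a median of 1.24 against 0.08 for all genes. With 1 OE library left out 11 to 13 rose, the fewest without day 2 OE replicate 1, and 25 rose and 3 fell without the dTAG13 library described above. Brdt, a further gene of the list, did not reach the filter, and 5 genes of the list were not analysed here. Genes near 0 at day 2, such as Dpep3 below, can pass the filter through day 6 alone and have no room to fall.

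Stra8 (stimulated by retinoic acid 8, chr6:34920163-34939344, plus strand, mm10), which opens the way into meiosis, rose most. It had 147 and 134 FPKM in day 6 OE, against 5.89 and 7.29 FPKM in day 2 OE, with a log2 change of 4.22 (SE 0.27, adjusted p = 1.38e-05). Dazl (chr17:50279395-50293636, minus strand, mm10), an RNA-binding protein that licenses germ cells for sexual differentiation, had 31.7 and 22.8 FPKM in day 6 OE, against 2.34 and 2.41 FPKM in day 2 OE, with a log2 change of 3.05 (SE 0.46, adjusted p = 0.000973). For both genes every day 6 library stood above every day 2 library, and the day 6 libraries were less alike for Dazl than for Stra8. Ddx4, the germ cell RNA helicase also called Vasa, had 16.03 and 14.3 FPKM in day 6 OE, against 4.27 and 4.94 FPKM in day 2 OE, with a log2 change of 1.53 (SE 0.28, adjusted p = 0.00259). Dpep3, a dipeptidase of the testis, had 7.85 and 5.27 FPKM in day 6 OE, against 0.366 and 0.123 FPKM in day 2 OE, with a log2 change of 2.59 (SE 0.32, adjusted p = 0.000304). Rnf17, a tudor domain protein of germ cell granules, had 17.2 and 15.2 FPKM in day 6 OE, against 3.14 and 3.5 FPKM in day 2 OE, with a log2 change of 1.99 (SE 0.23, adjusted p = 0.000204). These 3 genes also had no overlap between the days, which is common over all genes tested.

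Meiotic chromosome genes were among the calls. Sycp3, a protein of the axis of meiotic chromosomes, had 27.6 and 26.5 FPKM in day 6 OE, against 5.3 and 8.3 FPKM in day 2 OE, a change of 1.87 (adjusted p = 0.0244), and adjusted p was 0.0584 to 0.159 with 1 OE library left out. Stag3, the meiotic cohesin subunit, had 41.05 and 35.4 FPKM in day 6 OE, against 11.4 and 16.1 FPKM in day 2 OE, a change of 1.43 (adjusted p = 0.000334). Smc1b, its partner in that complex, had 7.07 and 6.35 FPKM in day 6 OE, against 1.77 and 1.64 FPKM in day 2 OE, a change of 1.51 (adjusted p = 0.00393). Sycp1, of the synaptonemal complex that joins these axes, was not called, with 0.775 and 0.707 FPKM in day 6 OE, against 0.225 and 0.196 FPKM in day 2 OE (0.52, adjusted p = 0.429). Tdrd12, a piRNA pathway helicase, was the 1 gene of the list that fell, with 9.62 and 6.67 FPKM in day 6 OE, against 50.3 and 43.9 FPKM in day 2 OE and a log2 change of -2.41 (SE 0.25, adjusted p = 0.000125). The piRNA genes Piwil2 and Tdrd1 were not called, with changes of 0.15 (adjusted p = 0.709) and 0.42 (adjusted p = 0.446).

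**Figure D2:**
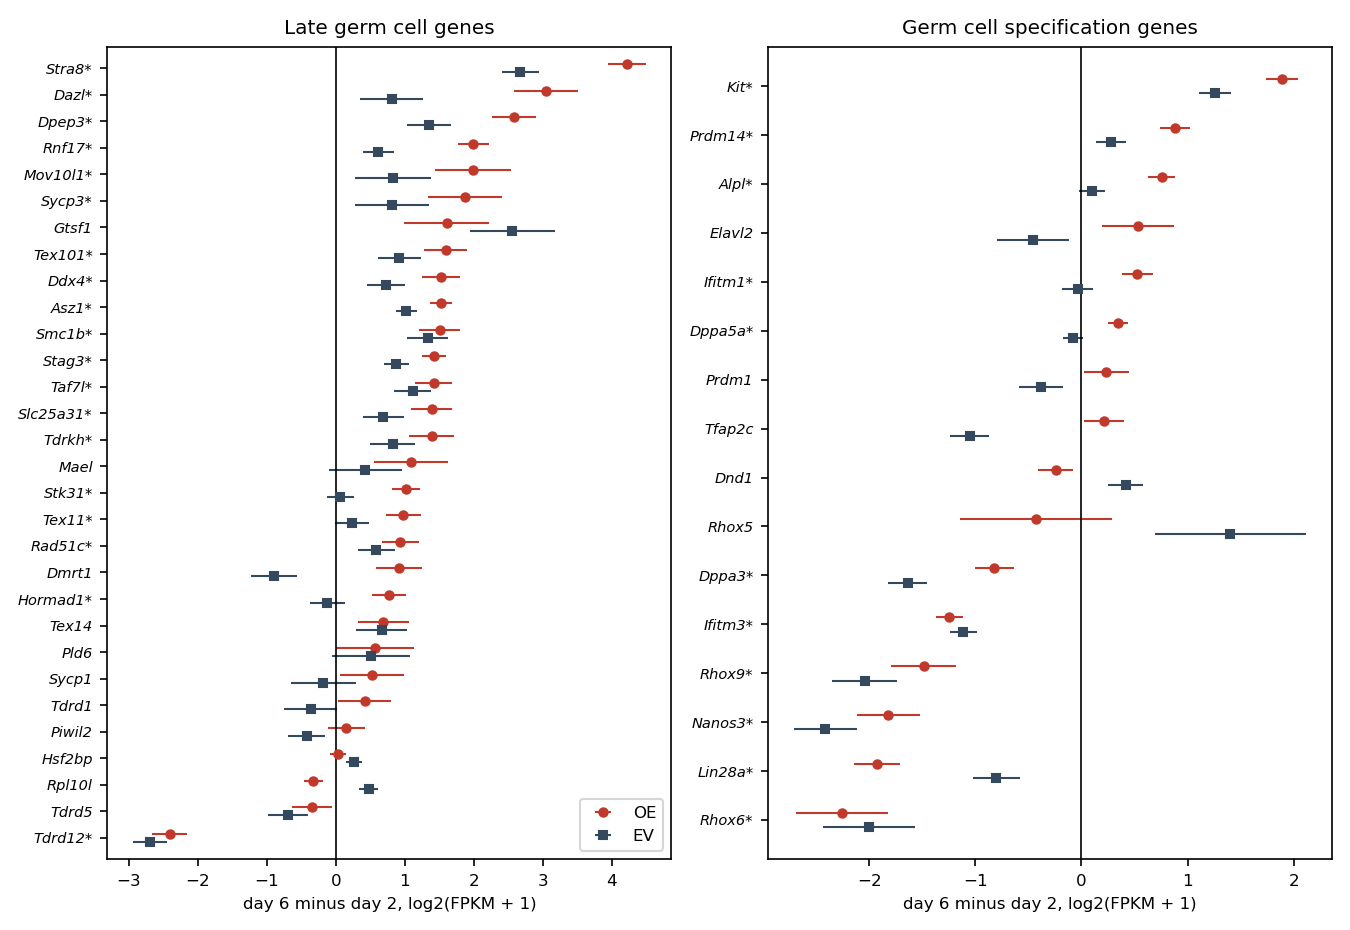
Change between day 6 and day 2, in log2(FPKM + 1) units on the horizontal axes, of the 30 tested late germ cell genes (left) and the 16 tested germ cell specification genes (right). Red circles are OE, dark squares are EV, bars are standard errors of the model, and an asterisk marks a call in OE. In OE, 18 late germ cell genes are called above 0 and 1 below it, while specification genes lie on both sides, 5 called above and 6 below.

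Promoters of late germ cell genes were searched for the short motifs that their known repressors bind, since these genes moved together. A Polycomb complex containing Mga, Max and E2f6 keeps many germ cell genes silent, and it is known to bind CACGTG and TCCCGC. The windows are 250 bases before to 50 bases after each gene's start, from RefSeq on GRCm38.p6 (mm10), and both strands were searched. Of 30 tested genes, 26 had a window. CACGTG was present in 12 of the 26 (46.2%), in 12.3% of 9186 tested genes with a window and in 8.09% of all 27025 windows. TCCCGC was present in 13 of the 26 (50%), against 40.9% and 22.1%. Among the 16 windows of list genes called higher in OE, CACGTG was present in 8 (50%). TCCCGC was present in 7 of those 16 (43.8%), near its share among tested genes. A link between either motif and the rise was not tested. The windows of 3 genes are shown because the genes behaved alike while the windows did not: Ddx4 and Slc25a31 hold 1 match to each motif, and Dazl holds neither. Slc25a31, a mitochondrial ADP/ATP carrier of germ cells, had 2.83 and 2.49 FPKM in day 6 OE, against 0.307 and 0.48 FPKM in day 2 OE, a change of 1.39 (adjusted p = 0.006), and adjusted p was 0.0288 to 0.0548 with 1 OE library left out. Matches are in capitals, 5′ to 3′ on the gene's strand, and a match on the other strand reads GCGGGA. A match describes letters and is not evidence of binding.
Ddx4 (chr13:112652261-112652560, minus strand): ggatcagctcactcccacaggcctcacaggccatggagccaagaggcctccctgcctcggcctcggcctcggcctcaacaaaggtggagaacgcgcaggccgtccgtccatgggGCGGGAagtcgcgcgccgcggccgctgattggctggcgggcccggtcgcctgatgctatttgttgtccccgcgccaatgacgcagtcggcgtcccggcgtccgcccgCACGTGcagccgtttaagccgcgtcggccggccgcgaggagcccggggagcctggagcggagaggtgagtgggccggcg
Slc25a31 (chr3:40708621-40708920, plus strand): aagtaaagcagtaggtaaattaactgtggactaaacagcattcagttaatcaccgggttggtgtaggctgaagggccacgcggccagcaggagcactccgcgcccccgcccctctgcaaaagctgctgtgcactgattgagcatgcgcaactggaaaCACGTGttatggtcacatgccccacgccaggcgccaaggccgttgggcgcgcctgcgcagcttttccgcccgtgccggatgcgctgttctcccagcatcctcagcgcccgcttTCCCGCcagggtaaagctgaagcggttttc
Dazl (chr17:50293571-50293870, minus strand): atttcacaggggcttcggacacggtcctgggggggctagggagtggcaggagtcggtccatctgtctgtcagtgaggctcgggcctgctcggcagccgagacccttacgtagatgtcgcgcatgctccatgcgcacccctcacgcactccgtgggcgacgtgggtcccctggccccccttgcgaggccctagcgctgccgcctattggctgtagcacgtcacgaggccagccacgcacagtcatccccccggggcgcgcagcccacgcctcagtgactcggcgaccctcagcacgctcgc

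Pluripotency genes changed unevenly, and the core factors stayed expressed. Of 8 core genes 1 rose and 3 fell. Of 14 naive genes 3 rose and 5 fell, and of 10 formative and primed genes 1 rose and 4 fell (medians -0.12, -0.24 and -0.51). With 1 OE library left out 1 or 2 naive genes rose, and 2 formative and primed genes fell. Pou5f1 (Oct4) had 773 and 766 FPKM in day 6 OE, against 1156 and 1079.9 FPKM in day 2 OE, with a log2 change of -0.54 (SE 0.11, adjusted p = 0.00467). Nanog had 269 and 277 FPKM in day 6 OE, against 232 and 236 FPKM in day 2 OE (0.22, adjusted p = 0.244) and Sox2 had 34.2 and 31.9 FPKM in day 6 OE, against 25.5 and 25.5 FPKM in day 2 OE (0.36, adjusted p = 0.205), so neither was called. Utf1, a chromatin-bound factor of undifferentiated cells, had 333 and 256 FPKM in day 6 OE, against 1052 and 835 FPKM in day 2 OE, with a log2 change of -1.68 (SE 0.16, adjusted p = 7.42e-05). Tdgf1 (Cripto), the Nodal co-receptor, went the other way, with 1375 and 1468 FPKM in day 6 OE, against 472 and 517 FPKM in day 2 OE and a log2 change of 1.52 (SE 0.15, adjusted p = 9.7e-05). The days did not overlap for Utf1 or Tdgf1.

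Among naive genes, Tdh, the threonine dehydrogenase of mouse embryonic stem cells, had 125 and 113 FPKM in day 6 OE, against 545 and 488 FPKM in day 2 OE, with a log2 change of -2.11 (SE 0.11, adjusted p = 4.54e-06). Nr0b1 (Dax1) had 35.2 and 33.98 FPKM in day 6 OE, against 144 and 140.4 FPKM in day 2 OE, with a log2 change of -2.01 (SE 0.25, adjusted p = 0.000299), and Zfp42 (Rex1) fell by 0.59 (adjusted p = 0.00286). Tbx3, a T-box factor of the naive state, had 155 and 141 FPKM in day 6 OE, against 97.3 and 76.7 FPKM in day 2 OE, a rise of 0.77 (adjusted p = 0.00522). Esrrb and Klf2 were not called, with changes of -0.20 (adjusted p = 0.495) and 0.13 (adjusted p = 0.899). Otx2, which drives exit towards the primed epiblast and counters germ cell fate in mice, averaged 10.8 ± 1.21 FPKM in day 6 OE and 2.54 ± 0.0418 FPKM in day 2 OE (SD, n = 2 each), with a log2 change of 1.74 (SE 0.23, adjusted p = 0.000445). Fgf5, the usual marker of primed epiblast, stayed below the filter, with at most 0.125 FPKM in day 6 OE and 0.739 FPKM in day 2 OE.

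Of the de novo methylation genes, Dnmt3b and Dnmt3l fell while Dnmt3a was tested and not called. Gadd45b and Gadd45g rose. Of 16 DNA methylation genes 3 rose and 6 fell (median -0.16), and Uhrf2 was among the rises, by 1.31. Dnmt3b (chr2:153649450-153687730, plus strand, mm10), a de novo methyltransferase, averaged 12.3 ± 0.983 FPKM in day 6 OE and 83.3 ± 5.09 FPKM in day 2 OE (SD, n = 2 each), with a log2 change of -2.66 (SE 0.13, adjusted p = 4.22e-06). Dnmt3l, its catalytically inactive cofactor, had 10.6 and 8.83 FPKM in day 6 OE, against 47.5 and 42.9 FPKM in day 2 OE, with a log2 change of -2.11 (SE 0.15, adjusted p = 2.35e-05). Both were several fold lower in each day 6 library. The maintenance enzyme Dnmt1 was not called, with 113 and 108 FPKM in day 6 OE, against 137 and 131 FPKM in day 2 OE (-0.28, adjusted p = 0.0646). Uhrf1, which recruits Dnmt1 to replicated DNA, had 126 and 124 FPKM in day 6 OE, against 197 and 195 FPKM in day 2 OE, with a log2 change of -0.64 (SE 0.16, adjusted p = 0.0111), a call lost with 1 OE library left out (adjusted p 0.054 to 0.0698). The dioxygenases Tet1 and Tet2 were not called, with changes of -0.04 (adjusted p = 0.888) and 0.55 (adjusted p = 0.0889).

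Gadd45b (chr10:80930073-80932204, plus strand, mm10) had 75.2 and 69.2 FPKM in day 6 OE, against 10.4 and 10.7 FPKM in day 2 OE, with a log2 change of 2.66 (SE 0.17, adjusted p = 1.38e-05). Gadd45g (chr13:51846678-51848468, plus strand, mm10) had 50.3 and 40.2 FPKM in day 6 OE, against 9.26 and 9.36 FPKM in day 2 OE, with a log2 change of 2.16 (SE 0.20, adjusted p = 7.89e-05). These stress-induced adaptor proteins have been tied to active demethylation, and both genes were higher in each day 6 library than in each day 2 library. Gadd45a was not called, with a change of 0.29 (adjusted p = 0.224). The imprint guardians Zfp57 and Trim28, which hold methylation at imprinted loci, fell by 0.75 (adjusted p = 0.00764, and 0.0211 to 0.074 with 1 OE library left out) and by 0.81 (adjusted p = 0.00164). Of 20 histone methylation genes 3 rose and 5 fell (median -0.05). Ehmt2 (G9a), which deposits H3K9me2, had 15.2 and 14.6 FPKM in day 6 OE, against 31.4 and 28.3 FPKM in day 2 OE, with a log2 change of -0.95 (SE 0.15, adjusted p = 0.00135). The Polycomb methyltransferase Ezh1 rose by 0.91 (adjusted p = 0.00145), and the Polycomb reader Cbx7 fell by 0.94 (adjusted p = 0.000644). Of 18 imprinted genes 5 rose and 4 fell, and with 1 OE library left out 2 or 3 rose and 1 to 3 fell. Sgce rose by 2.44 (adjusted p = 0.00132), Igf2r rose by 1.27 (adjusted p = 0.00501), and Nnat fell by 0.97 (adjusted p = 0.00335).

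Most FGF and ERK response genes fell. Of 15 genes that this pathway induces, encodes or is held back by, 2 rose and 9 fell (13.3% and 60.0%), with a median of -0.79. Myc (chr15:61985391-61990374, plus strand, mm10), the growth regulator, had 5.06 and 3.45 FPKM in day 6 OE, against 97.9 and 74.3 FPKM in day 2 OE, with a log2 change of -4.05 (SE 0.28, adjusted p = 1.93e-05). Spry4, a feedback inhibitor of the pathway, had 7.49 and 6.45 FPKM in day 6 OE, against 26.9 and 24.1 FPKM in day 2 OE, with a log2 change of -1.73 (SE 0.30, adjusted p = 0.00211). Etv4, an ETS factor that FGF induces, had 15.5 and 14.6 FPKM in day 6 OE, against 36.4 and 32.2 FPKM in day 2 OE, with a log2 change of -1.14 (SE 0.17, adjusted p = 0.000895). Egr1, an immediate early gene, had 33.4 and 25.9 FPKM in day 6 OE, against 64.2 and 58.7 FPKM in day 2 OE, with a log2 change of -1.04 (SE 0.21, adjusted p = 0.00448), and adjusted p was 0.0125 to 0.0508 with 1 OE library left out. Each of these 4 was lower in both day 6 libraries. Fos, another immediate early gene, rose, with 19.2 and 17.6 FPKM in day 6 OE, against 4.78 and 6.42 FPKM in day 2 OE and a log2 change of 1.56 (SE 0.26, adjusted p = 0.00173). The ligand Fgf17 fell by 2.99 and the phosphatase Dusp6 by 1.18, but their calls were lost with 1 OE library left out (adjusted p 0.0552 to 0.0898 and 0.0525 to 0.11). In that setting 4 or 5 genes of the list fell.

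BMP, Nodal and Wnt genes moved in both directions. Of 12 BMP response genes 2 rose and 2 fell (16.7% each), and of 14 Wnt pathway genes 2 rose and 2 fell (14.3% each). These shares are near those of all genes tested, 17.5% higher and 14.7% lower. Of 10 Nodal pathway genes 3 rose and 2 fell (30% and 20%). With 1 OE library left out 0 or 1 BMP gene rose, 1 or 2 Nodal genes fell and 0 to 2 Wnt genes fell. Id3 (chr4:136143497-136145755, plus strand, mm10), a helix-loop-helix inhibitor that BMP induces, had 33.1 and 32.6 FPKM in day 6 OE, against 279.9 and 260.2 FPKM in day 2 OE, with a log2 change of -3.00 (SE 0.09, adjusted p = 3.28e-07). Bmp4, the ligand used to start germ cell fate in culture, had 16.7 and 15.5 FPKM in day 6 OE, against 75.2 and 68.4 FPKM in day 2 OE, with a log2 change of -2.09 (SE 0.17, adjusted p = 4.57e-05). Id1, a close relative of Id3, was not called, with 104 and 110.1 FPKM in day 6 OE, against 93.1 and 102 FPKM in day 2 OE (0.13, adjusted p = 0.702), and Id2 rose by 1.21 (adjusted p = 0.0143), a call lost with 1 OE library left out (0.0504 to 0.0956). Lefty1, the feedback inhibitor of Nodal, had 99.2 and 73.1 FPKM in day 6 OE, against 213 and 228 FPKM in day 2 OE, with a log2 change of -1.36 (SE 0.19, adjusted p = 0.000558). Its close copy Lefty2 was not called, with 162 and 161 FPKM in day 6 OE, against 158 and 157 FPKM in day 2 OE. Reads of such copies may be shared between them. Of the Wnt genes, Tcf7l2 rose by 1.31 (adjusted p = 0.00418) and Nkd1 by 1.02 (adjusted p = 0.00191).

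Among primitive streak and mesoderm genes, which include Bmp4 above, 3 of 9 were higher and 2 lower at day 6, against 1 or 2 higher and 1 lower with 1 OE library left out. Gsc, the organizer homeobox gene, had 5.66 and 6.35 FPKM in day 6 OE, against 0.588 and 0.0863 FPKM in day 2 OE, with a log2 change of 2.41 (SE 0.27, adjusted p = 0.000197). Of 4 posterior patterning genes 3 rose and 0 fell, and 1 or 2 rose with 1 OE library left out. Hoxd1 had 1.83 and 1.45 FPKM in day 6 OE, against 0.225 and 0.0743 FPKM in day 2 OE, with a log2 change of 1.20 (SE 0.17, adjusted p = 0.000797). Hoxb2 rose by 0.79 (adjusted p = 0.00562), and adjusted p was 0.0261 to 0.0521 with 1 OE library left out. Both stayed at low levels. Of 17 genes in this list 4 were tested. Hoxd1 passed the filter through day 6 OE while near 0 in day 2 OE, so the absence of falls says little.

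Glycolysis and hypoxia response genes rose nearly as a block. Of 24 tested, 22 rose and 0 fell (91.7%), with a median of 1.76. These genes encode glucose transporters, glycolytic enzymes and targets of the hypoxia-inducible factors. Bnip3 (chr7:138890836-138909519, minus strand, mm10), a mitophagy receptor, had 462 and 439.8 FPKM in day 6 OE, against 11.6 and 51.6 FPKM in day 2 OE, with a log2 change of 4.13 (SE 0.51, adjusted p = 0.000316). Slc16a3, the lactate exporter MCT4, had 242 and 239.9 FPKM in day 6 OE, against 11.8 and 51.6 FPKM in day 2 OE, with a log2 change of 3.22 (SE 0.50, adjusted p = 0.00111). P4ha1, a collagen prolyl hydroxylase, had 51.4 and 53.3 FPKM in day 6 OE, against 3.49 and 5.63 FPKM in day 2 OE, with a log2 change of 3.29 (SE 0.37, adjusted p = 0.000203). All 3 were far higher in each day 6 library. Vegfa, the angiogenic growth factor, had 15.2 and 15.7 FPKM in day 6 OE, against 0.767 and 1.34 FPKM in day 2 OE, with a log2 change of 3.02 (SE 0.24, adjusted p = 3.67e-05). Slc2a3, the glucose transporter GLUT3, had 1973 and 1981 FPKM in day 6 OE, against 426 and 437 FPKM in day 2 OE, with a log2 change of 2.19 (SE 0.12, adjusted p = 6.72e-06). Pgk1 and Ldha, enzymes of glycolysis and lactate production, rose by 1.87 (adjusted p = 2.38e-05) and 1.41 (adjusted p = 0.000231). The exceptions were Pdk1 and Pfkfb4, with changes of 0.19 (adjusted p = 0.612) and 0.10 (adjusted p = 0.906).

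The day 2 OE replicates differed in this group. Day 2 OE replicate 2 was higher than replicate 1 for 20 of the 24 genes, by a median log2 difference of 0.32, whereas over all genes tested that median was -0.08. Both day 6 libraries nevertheless exceeded both day 2 libraries for 24 of 24, as they did for 5552 of the 12059 genes tested, and 17.5% of all genes tested were called higher. Leaving out either OE replicate of either day kept 17 to 20 calls. Promoters of this group were searched for ACGTG, the core that the hypoxia-inducible factors recognise, a motif chosen after the values were seen. It also lies within CACGTG. It was present in 16 of 23 windows of the group (69.6%), in 29.9% of the tested genes and in 21.8% of all windows. In the late germ cell windows it was present in 18 of 26 (69.2%). The windows of the first 2 genes named above are shown, with ACGTG on either strand in capitals. In Bnip3 a match on each strand overlaps as CACGTG.
Bnip3 (chr7:138909457-138909756, minus strand): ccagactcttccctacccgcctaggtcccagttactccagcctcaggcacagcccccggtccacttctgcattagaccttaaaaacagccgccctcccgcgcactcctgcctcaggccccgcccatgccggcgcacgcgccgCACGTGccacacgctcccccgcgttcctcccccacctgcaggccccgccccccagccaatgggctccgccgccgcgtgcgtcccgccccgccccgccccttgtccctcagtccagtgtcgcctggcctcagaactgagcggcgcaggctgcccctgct
Slc16a3 (chr11:120948817-120949116, plus strand): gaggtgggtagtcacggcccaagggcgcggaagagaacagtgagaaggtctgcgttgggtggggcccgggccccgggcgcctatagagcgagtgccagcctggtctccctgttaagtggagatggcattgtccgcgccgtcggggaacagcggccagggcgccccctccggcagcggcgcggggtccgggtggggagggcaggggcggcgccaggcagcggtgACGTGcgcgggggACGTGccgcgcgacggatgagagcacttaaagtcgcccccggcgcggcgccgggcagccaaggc

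Oxidative phosphorylation genes shifted less. Of 29 tested, 0 rose and 7 fell (median -0.22), but after quantile normalization 7 rose and 3 fell, and with 1 OE library left out 3 or 4 fell. Uqcrq, a subunit of respiratory complex III, had 501 and 457 FPKM in day 6 OE, against 926 and 859 FPKM in day 2 OE, with a log2 change of -0.90 (SE 0.09, adjusted p = 0.00011).

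Ribosome biogenesis genes fell nearly as a block. Of 29 genes for nucleolar factors and RNA polymerase I, 0 rose and 24 fell (82.8%), with a median of -0.83. Bop1, a factor that matures the large ribosomal subunit, had 57.3 and 52.4 FPKM in day 6 OE, against 154 and 133 FPKM in day 2 OE, with a log2 change of -1.37 (SE 0.13, adjusted p = 8.34e-05). Nhp2, a protein of the pseudouridylation complexes, had 248 and 234 FPKM in day 6 OE, against 727 and 599 FPKM in day 2 OE, with a log2 change of -1.45 (SE 0.10, adjusted p = 2.06e-05). Polr1b, the second largest subunit of RNA polymerase I, had 37.3 and 35.8 FPKM in day 6 OE, against 97.4 and 81.2 FPKM in day 2 OE, with a log2 change of -1.26 (SE 0.12, adjusted p = 7.28e-05). Both day 6 libraries were below both day 2 libraries for these genes, which adds little to a call. The nucleolar chaperone Npm1, the most abundant of the list, fell by 0.45 (adjusted p = 0.0143, and 0.0423 to 0.0914 with 1 OE library left out). Quantile normalization left 20 called lower and 0 higher, and leaving out an OE library left 17 to 20 called lower.

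**Figure D3:**
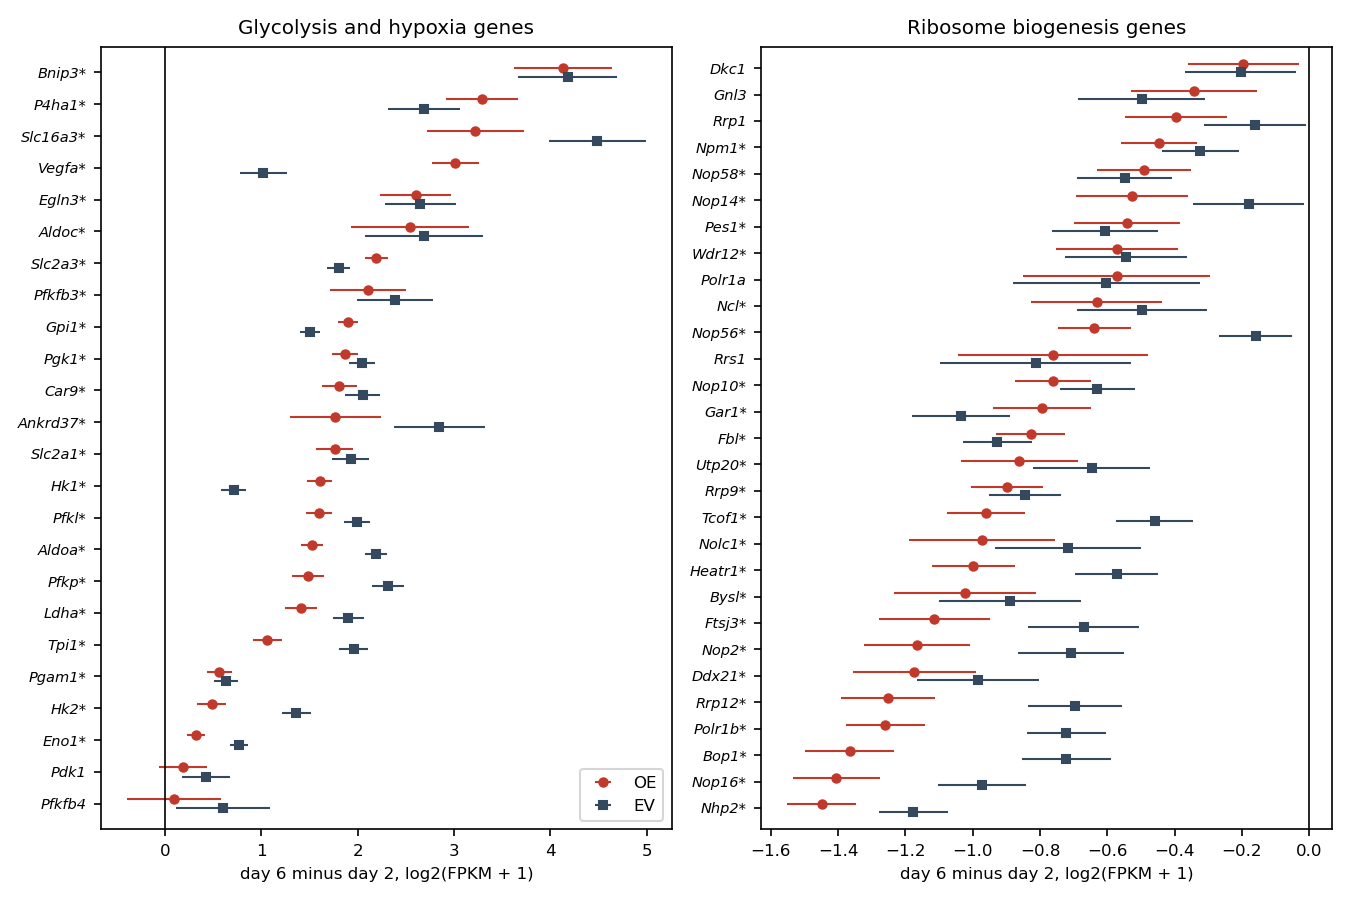
Change between day 6 and day 2, in log2(FPKM + 1) units on the horizontal axes, of the 24 tested glycolysis and hypoxia genes (left) and the 29 tested ribosome biogenesis genes (right). Red circles are OE, dark squares are EV, bars are standard errors, and an asterisk marks a call in OE. All OE changes lie above 0 on the left, where 22 are called, and below 0 on the right, where 24 are called.

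Genes of G1 control moved both ways. Of 15 tested 3 rose and 5 fell (median -0.53), and with 1 OE library left out 1 rose and 4 or 5 fell. Ccnd2, a D-type cyclin, had 0.215 and 0.414 FPKM in day 6 OE, against 6.66 and 6.29 FPKM in day 2 OE, with a log2 change of -2.51 (SE 0.22, adjusted p = 5.04e-05). Cdk4, the kinase that such cyclins activate, had 620.1 and 584 FPKM in day 6 OE, against 1027 and 919 FPKM in day 2 OE, with a log2 change of -0.69 (SE 0.10, adjusted p = 0.000602). Cdkn1a (p21), a cyclin-dependent kinase inhibitor, had 48.6 and 46.2 FPKM in day 6 OE, against 24.3 and 21.8 FPKM in day 2 OE, with a log2 change of 1.01 (SE 0.12, adjusted p = 0.00028). Thus p21 was higher, and the cyclin and the kinase lower, in each day 6 library. Of 24 cell cycle genes 2 rose and 7 fell, but after quantile normalization 5 rose and 4 fell, and with 1 OE library left out 0 or 1 rose and 2 to 6 fell. Ccne1, the cyclin of S phase entry, had 122 and 134 FPKM in day 6 OE, against 482 and 363 FPKM in day 2 OE, with a log2 change of -1.70 (SE 0.13, adjusted p = 3.45e-05). The proliferation marker Mki67 was not called, with 13.7 and 12.7 FPKM in day 6 OE, against 8.48 and 9.91 FPKM in day 2 OE (0.48, adjusted p = 0.106).

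Targets of p53 and of the stress factor ATF4 split. Among p53 targets 25% rose and 21.4% fell, against 17.5% and 14.7% of all genes tested. Of 28 p53 targets 7 rose and 6 fell, and with 1 OE library left out 3 rose and 4 or 5 fell. Trp53 itself fell by 0.92 (adjusted p = 0.000424). Pmaip1 (Noxa), a trigger of apoptosis, had 74.8 and 70.7 FPKM in day 6 OE, against 4.92 and 5.77 FPKM in day 2 OE, with a log2 change of 3.54 (SE 0.34, adjusted p = 8.51e-05). Sesn2, which restrains mTORC1, had 39.5 and 38.9 FPKM in day 6 OE, against 102 and 93.4 FPKM in day 2 OE, with a log2 change of -1.29 (SE 0.11, adjusted p = 5.22e-05). Of 21 ATF4 response genes 4 rose and 10 fell (median -0.42), and 5 to 7 fell with 1 OE library left out. Ddit4 (REDD1), an mTORC1 inhibitor that hypoxia also induces, had 16.7 and 16.3 FPKM in day 6 OE, against 0.94 and 1.81 FPKM in day 2 OE, with a log2 change of 2.91 (SE 0.24, adjusted p = 4.57e-05). Ddit3 (CHOP) rose by 1.98 (adjusted p = 2.5e-05) and Asns, asparagine synthetase, by 0.69 (adjusted p = 0.00186). The tRNA synthetases Nars, Sars and Wars fell by 0.91, 0.96 and 0.95 (adjusted p = 0.00404, 0.000447 and 0.000177). Of 23 cholesterol synthesis genes 5 rose and 5 fell, and with 1 OE library left out 1 or 2 rose and 2 to 5 fell. In the fit to all libraries 21.7% of the cholesterol genes moved each way, not far from the shares of all genes tested. Msmo1 rose by 1.05 (adjusted p = 0.000416) and Mvk fell by 0.86 (adjusted p = 0.00291).

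Lysosome genes mostly rose. Of 26 tested 15 rose and 1 fell (median 0.48), and 6 to 9 rose with 1 OE library left out, the fewest without day 2 OE replicate 2 or day 6 OE replicate 1. Lamp2, a membrane protein of the lysosome, had 43.8 and 46.1 FPKM in day 6 OE, against 13.4 and 12.9 FPKM in day 2 OE, with a log2 change of 1.70 (SE 0.17, adjusted p = 9.82e-05). Psap, the precursor of the saposins that activate lipid breakdown, had 229 and 206 FPKM in day 6 OE, against 85.8 and 80.1 FPKM in day 2 OE, with a log2 change of 1.38 (SE 0.13, adjusted p = 8.51e-05). Lgals3, a galectin that binds damaged lysosomes, fell, with 31.4 and 31.7 FPKM in day 6 OE, against 171 and 150.03 FPKM in day 2 OE and a log2 change of -2.31 (SE 0.15, adjusted p = 1.38e-05).

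Of 13 genes for antigen presentation and interferon response 4 rose and 0 fell (median 0.41), and after quantile normalization 4 rose and 2 fell. H2-D1, a classical class I heavy chain, had 49.9 and 58.4 FPKM in day 6 OE, against 6.16 and 7.99 FPKM in day 2 OE, with a log2 change of 2.78 (SE 0.23, adjusted p = 4.22e-05). H2-K1, another class I heavy chain, had 23.7 and 27.97 FPKM in day 6 OE, against 2.99 and 4.35 FPKM in day 2 OE, with a log2 change of 2.53 (SE 0.34, adjusted p = 0.000501). Reads of these related genes may be shared. Their light chain B2m was not called, with 11.6 and 14.3 FPKM in day 6 OE, against 5.11 and 8.01 FPKM in day 2 OE (0.91, adjusted p = 0.111).

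Epithelial genes moved both ways, with 4 of 16 higher and 6 lower. Esrp2, a splicing regulator of epithelial cells, had 2.07 and 2.33 FPKM in day 6 OE, against 20.9 and 15.5 FPKM in day 2 OE, with a log2 change of -2.57 (SE 0.25, adjusted p = 9.15e-05). Jup, the junction protein plakoglobin, had 25.7 and 23.05 FPKM in day 6 OE, against 87.7 and 76.4 FPKM in day 2 OE, with a log2 change of -1.71 (SE 0.12, adjusted p = 1.77e-05). Krt19, a simple epithelial keratin, rose, with 9.92 and 10.4 FPKM in day 6 OE, against 0.985 and 1.71 FPKM in day 2 OE and a log2 change of 2.27 (SE 0.27, adjusted p = 0.000248). Cdh1 (E-cadherin) was not called, with 259.5 and 238 FPKM in day 6 OE, against 272 and 257 FPKM in day 2 OE. Of 7 mesenchymal genes 4 rose and 0 fell, and 2 or 3 rose with 1 OE library left out. Fn1, fibronectin, had 257 and 266 FPKM in day 6 OE, against 113 and 115 FPKM in day 2 OE, with a log2 change of 1.19 (SE 0.14, adjusted p = 0.000263). Mmp2, a matrix metalloprotease, rose by 1.52 (adjusted p = 0.00156).

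**Figure D4:**
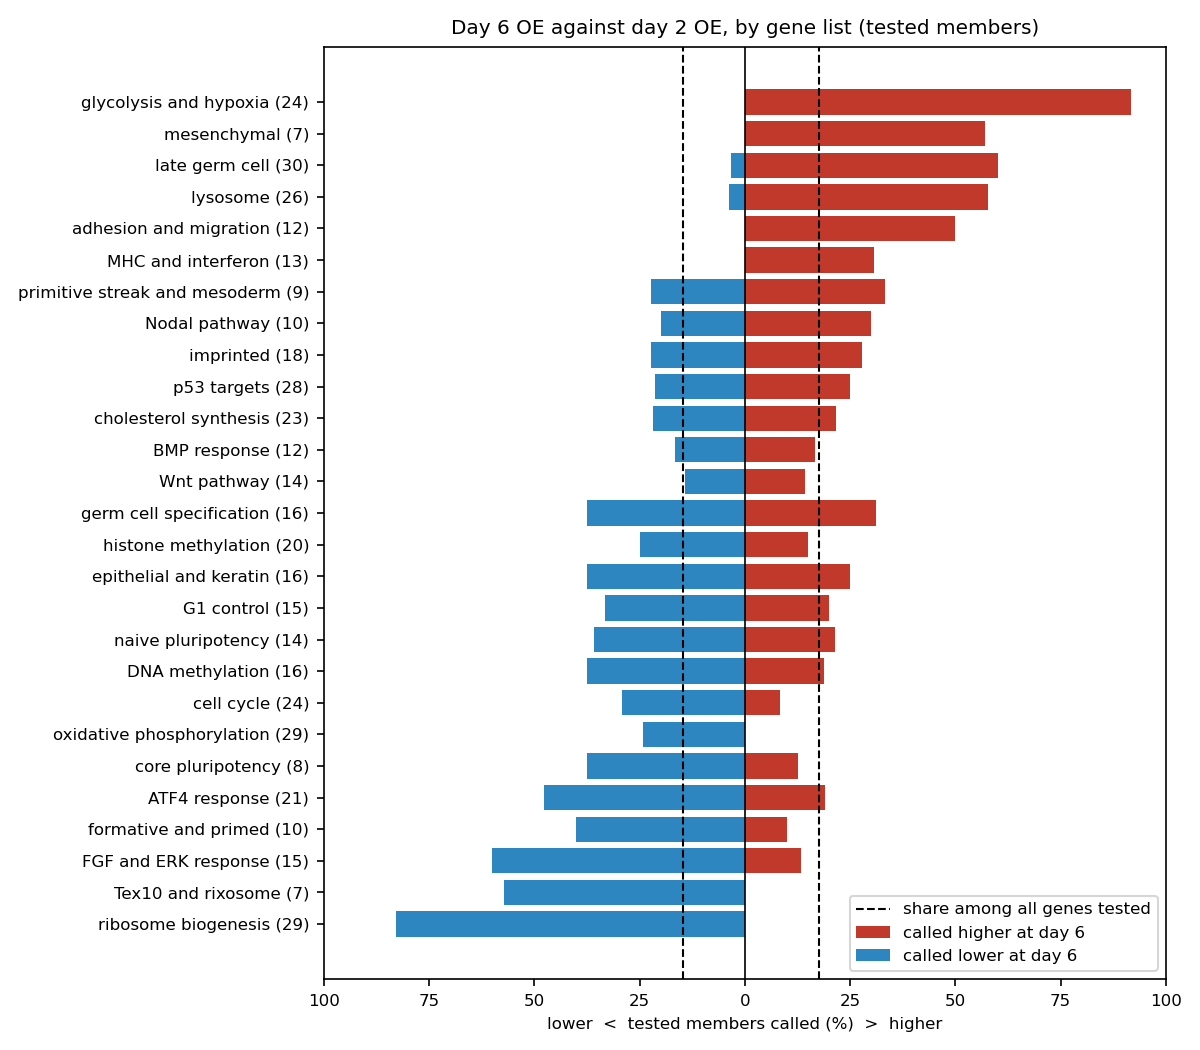
Share of the tested members of each gene list with at least 7 of them that were called higher (red, right) or lower (blue, left) in day 6 OE against day 2 OE, in percent. Numbers in brackets are members tested, and dashed lines mark the shares over all genes tested, 17.5% higher and 14.7% lower. Glycolysis and hypoxia reaches 91.7% higher and ribosome biogenesis 82.8% lower.

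Markers of other cell types that could be read were mostly low, with a few exceptions. Values were read for 4 of 11 extraembryonic endoderm, 6 of 9 trophoblast and 5 of 10 mesenchyme and fibroblast markers. They were read for 4 of 10 neural ectoderm and 4 of 11 endothelium and blood markers. The other markers were not analysed here, so the sums cover part of each list and do not show that a cell type was absent. Summed over the 4 listed extraembryonic endoderm genes, levels were 7.43 and 9.64 FPKM in day 6 OE, against 2.01 and 1.40 FPKM in day 2 OE. Gata4 had 3.95 and 5.29 FPKM in day 6 OE, against 1.23 and 0.761 FPKM in day 2 OE, with a log2 change of 1.49 (SE 0.32, adjusted p = 0.00578), and adjusted p was 0.0223 to 0.0569 with 1 OE library left out, while Gata6 had 0.729 and 1.104 FPKM in day 6 OE, against 0 and 0 FPKM in day 2 OE. Summed over 6 trophoblast genes, levels were 9.82 and 10.3 FPKM in day 6 OE, against 3.29 and 2.91 FPKM in day 2 OE, with 0 of 4 tested genes called. Summed over 5 mesenchyme and fibroblast genes, levels were 1.82 and 2.10 FPKM in day 6 OE, against 20.4 and 14.1 FPKM in day 2 OE. Most of the day 2 sum was Myl9, a smooth muscle myosin light chain, which had 0.866 and 0.713 FPKM in day 6 OE, against 16.2 and 11.8 FPKM in day 2 OE and a log2 change of -3.05 (SE 0.46, adjusted p = 0.000894). Col1a1 and Twist1 stayed under 1 FPKM in every OE library.

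Summed over 4 neural ectoderm genes, levels were 51.3 and 49.0 FPKM in day 6 OE, against 130.0 and 123.7 FPKM in day 2 OE. Tubb3, a tubulin also found outside neurons, made up most of it, with 46.2 and 43.97 FPKM in day 6 OE, against 125 and 119 FPKM in day 2 OE and a log2 change of -1.42 (SE 0.14, adjusted p = 8.51e-05), and Pax6 had 0.796 and 0.691 FPKM in day 6 OE, against 2.15 and 1.91 FPKM in day 2 OE (adjusted p = 0.0116, and 0.0458 to 0.0876 with 1 OE library left out). Summed over 4 endothelium and blood genes, levels were 115.1 and 111.9 FPKM in day 6 OE, against 40.6 and 36.0 FPKM in day 2 OE. Pecam1, which pluripotent cells and early germ cells also express, made up most of it, with 112 and 108 FPKM in day 6 OE, against 37.04 and 32.8 FPKM in day 2 OE and a log2 change of 1.63 (SE 0.25, adjusted p = 0.000982), while Kdr stayed at 0.208 FPKM or less in the OE libraries. The part of these marker shifts in the gene group changes was not tested.

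Among the largest single rises, Ndufa4l2 (chr10:127514967-127517154, plus strand, mm10), a hypoxia-induced inhibitor of respiratory complex I, had 129.6 and 122 FPKM in day 6 OE, against 0.188 and 3.79 FPKM in day 2 OE, with a log2 change of 5.73 (SE 0.69, adjusted p = 0.000283). Its level in day 2 OE replicate 2 exceeded that in replicate 1, and both lay far below day 6. Copz2, a coatomer subunit whose intron carries a microRNA, had 77.9 and 86.5 FPKM in day 6 OE, against 1.29 and 0.988 FPKM in day 2 OE, with a log2 change of 5.28 (SE 0.44, adjusted p = 4.57e-05). A2m, the protease inhibitor alpha-2-macroglobulin, had 38.9 and 43.7 FPKM in day 6 OE, against 0.404 and 0.93 FPKM in day 2 OE, with a log2 change of 4.68 (SE 0.23, adjusted p = 4.5e-06). Bhlhe40, a hypoxia- and clock-linked repressor, had 156 and 130.3 FPKM in day 6 OE, against 4.02 and 10.3 FPKM in day 2 OE, with a log2 change of 4.25 (SE 0.41, adjusted p = 8.53e-05). Crtac1, Cidea, the class II antigen gene H2-Ab1, Col4a1 and the prolyl hydroxylase gene P4ha2 rose by 4.23, 4.01, 3.93, 3.80 and 3.57 log2 units. No overlap between the days was a condition for choosing these largest rises, so it is not a separate result. Col4a1, a basement membrane collagen, had 30.7 and 33.3 FPKM in day 6 OE, against 1.71 and 1.07 FPKM in day 2 OE, with a log2 change of 3.80 (SE 0.21, adjusted p = 7.08e-06).

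Among the largest falls, Gpx2, a glutathione peroxidase of epithelia, had 2.46 and 0.981 FPKM in day 6 OE, against 71.5 and 72.9 FPKM in day 2 OE, with a log2 change of -4.81 (SE 0.23, adjusted p = 4.22e-06). Spink1, a trypsin inhibitor, had 0 and 0.477 FPKM in day 6 OE, against 24.9 and 11.4 FPKM in day 2 OE, with a log2 change of -3.88 (SE 0.45, adjusted p = 0.000226). Trh, the precursor of thyrotropin-releasing hormone, had 26.5 and 19.3 FPKM in day 6 OE, against 296 and 316 FPKM in day 2 OE, with a log2 change of -3.70 (SE 0.17, adjusted p = 4.22e-06). Plac8, a small cysteine-rich protein, had 1.78 and 2.06 FPKM in day 6 OE, against 22.7 and 23.5 FPKM in day 2 OE, with a log2 change of -3.04 (SE 0.19, adjusted p = 1.08e-05). For all 4, lower values in both day 6 libraries were a condition of the choice. Fgfbp1, a carrier that frees FGFs from the matrix, had 0 and 0.106 FPKM in day 6 OE, against 8.54 and 5.87 FPKM in day 2 OE, with a log2 change of -2.94 (SE 0.24, adjusted p = 3.63e-05). Enox1 and Lgals9 fell by 3.56 and 2.96 log2 units. Bnipl fell by 3.17, a call lost with 1 OE library left out (0.088 to 0.111).

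Much of the OE change was also seen in EV, a comparison with no library in common. In EV 1600 genes rose (13.3%) and 1263 fell (10.5%). Of the 2115 genes that rose in OE, 1183 also rose in EV, which is 55.9% of the OE rises and 73.9% of the EV rises. Of the 1775 that fell in OE, 939 also fell in EV, 52.9% of the OE falls and 74.3% of the EV falls. Another 13 genes were called in opposite directions. Across the 12059 genes the changes correlated with Pearson's r of 0.80, a description since genes are not independent. Glycolysis and hypoxia genes rose in both (22 of 24 in each), and 19 of 29 ribosome biogenesis genes fell in EV, with a median of -0.65.

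Of the 30 late germ cell genes, 18 rose and 1 fell in OE with a median of 1.24, and 8 rose and 1 fell in EV with a median of 0.64. The difference between the day changes was called for 0 of the 30. Stra8 changed by 2.68 (adjusted p = 0.00024) in EV, with 62.3 and 40.5 FPKM in day 6 EV, against 7.56 and 6.49 FPKM in day 2 EV, and the difference was 1.55 (SE 0.38, adjusted p = 0.143). Dazl changed by 0.81 (adjusted p = 0.239) in EV, with 4.82 and 5.53 FPKM in day 6 EV, against 1.85 and 3.34 FPKM in day 2 EV, and the difference was 2.24 (SE 0.65, adjusted p = 0.222). So the larger changes in OE were not shown to differ from those in EV.

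The test of the difference itself called 28 genes (0.232%), 8 with a higher and 20 with a lower change in OE than in EV. Id3, described above, fell far more in OE: in EV it had 179.5 and 183 FPKM in day 6 EV, against 302 and 283 FPKM in day 2 EV, and the difference was -2.32 (SE 0.13, adjusted p = 0.000117). Gadd45b and Gadd45g stand on the other side. Gadd45b had 27.2 and 24.2 FPKM in day 6 EV, against 16.3 and 15.5 FPKM in day 2 EV, a difference of 2.00 (SE 0.24, adjusted p = 0.0165), and Gadd45g had 23.6 and 15.02 FPKM in day 6 EV, against 21.7 and 26.9 FPKM in day 2 EV, a difference of 2.50 (SE 0.29, adjusted p = 0.0155). Dnmt3l, which fell in OE, had 32.7 and 37.03 FPKM in day 6 EV, against 51.3 and 40.1 FPKM in day 2 EV, a difference of -1.74 (SE 0.22, adjusted p = 0.0165). Lgals3 had 147 and 208 FPKM in day 6 EV, against 224 and 228 FPKM in day 2 EV, a difference of -1.94 (SE 0.21, adjusted p = 0.0105).

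Lefty1 moved in opposite directions: it fell in OE, while in EV it had 305 and 352 FPKM in day 6 EV, against 229.8 and 195 FPKM in day 2 EV, a difference of -1.99 (SE 0.26, adjusted p = 0.0229). Trh had 68.6 and 92.8 FPKM in day 6 EV, against 135 and 133 FPKM in day 2 EV, a difference of -2.96 (SE 0.24, adjusted p = 0.00149), and Sesn2 had 75.5 and 79.2 FPKM in day 6 EV, against 85.3 and 75.5 FPKM in day 2 EV, a difference of -1.24 (SE 0.16, adjusted p = 0.02). Trib3, an ATF4 target that feeds back on that factor, also went opposite ways, with 12.2 and 10.7 FPKM in day 6 EV, against 7.71 and 7.1 FPKM in day 2 EV and a difference of -1.42 (SE 0.23, adjusted p = 0.0479). Fabp3, a fatty acid carrier, rose in both, to 716 and 696 FPKM in day 6 OE, against 205 and 194 FPKM in day 2 OE, and with 356 and 329 FPKM in day 6 EV, against 186 and 180.3 FPKM in day 2 EV, a difference of 0.92 (SE 0.13, adjusted p = 0.0339). Apoe, the lipid carrier apolipoprotein E, had 1018 and 921 FPKM in day 6 OE, against 1805 and 1771 FPKM in day 2 OE, and 1583 and 1342 FPKM in day 6 EV, against 1500.4 and 1444 FPKM in day 2 EV, a difference of -0.87 (SE 0.14, adjusted p = 0.0469). Lefty1 and Trib3 thus fell in OE and rose in EV, while Fabp3 rose in both by different amounts. Sesn2, Trib3, Lgals3, Dnmt3l, Fabp3 and Apoe were singled out after their values were seen. Vegfa missed the threshold, with a difference of 1.99 (SE 0.34, adjusted p = 0.0607), as did Dnmt3b, with -1.03 (SE 0.18, adjusted p = 0.0607). These calls are fragile: without any 1 of the 8 EV and OE libraries 0 or 1 gene with a higher and 2 to 6 with a lower change were called, and without the dTAG13 library 670 and 669 were called.

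**Figure D5:**
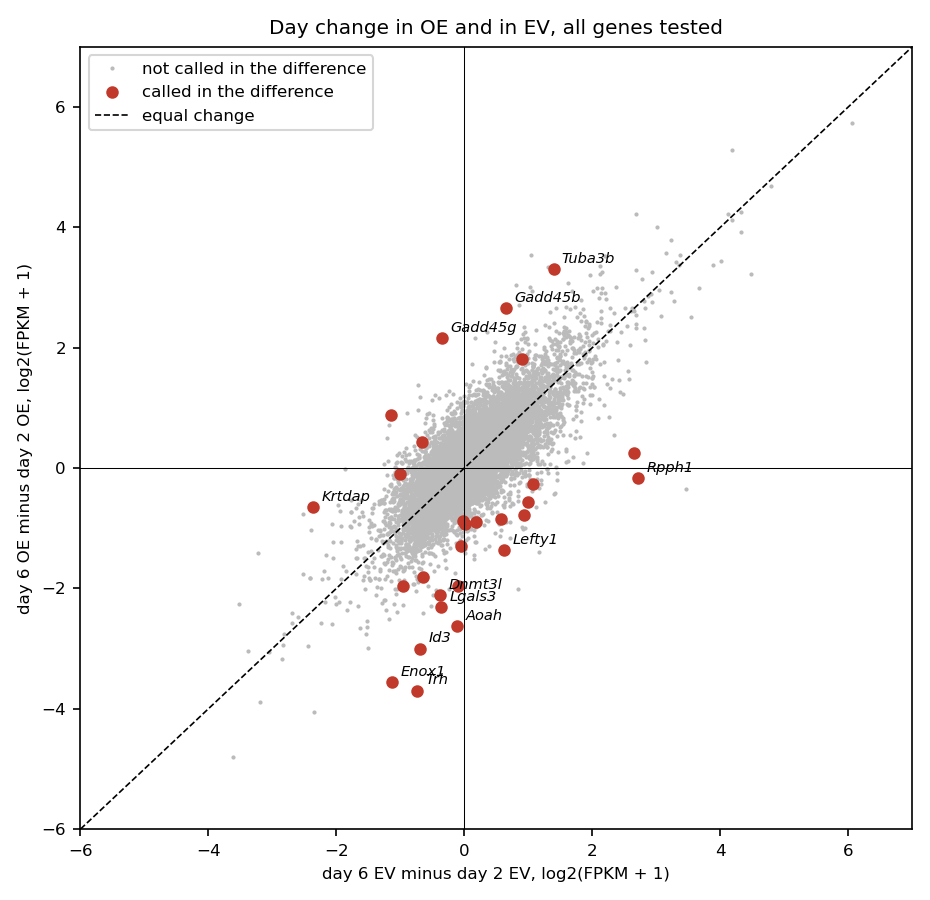
Change between day 6 and day 2 in OE (vertical axis) against that in EV (horizontal axis), both in log2(FPKM + 1) units, for 12059 genes. Red points are the 28 genes called in the difference, some of them named, grey points are the others, and the dashed line marks equal change. Id3, Trh, Enox1 and Aoah lie below the line, and Gadd45b, Gadd45g and Tuba3b above it.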

How the data were processed

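RNA-seq values for 12 libraries, 2 in each of 6 groups, were analysed, and the comparison used 2 libraries of day 6 OE and 2 of day 2 OE. The submitters' processing notes name FastQC 0.10.1, Trim Galore 0.6.3, cutadapt, STAR 2.7.6a, Cufflinks 2.2.1 and the mouse build mm10, without their settings. The deposited table holds FPKM with 1 added to every value. That reading rests on the values: 90.1% of 21292 values between 1.1 and 2 carried at least 7 digits, against 0% of 54187 between 2 and 10. The 1 was subtracted. Counts and depth are not given, so FPKM keep no measure of counting error.

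Genes reaching 1 FPKM in at least 2 libraries were kept, 12059 of 12955. Values were tested as log2(FPKM + 1) with limma 3.58.1 in R 4.3.3, with a mean for each of the 6 groups and a trended prior, and p-values were adjusted by Benjamini-Hochberg over all genes tested. The difference of day changes was a contrast of the same model. A check on simulated data covered the OE day contrast only, so the test of the difference was not checked in this way. Summaries and plots used Python 3.11.15, pandas 2.3.3, numpy 2.4.6 and matplotlib 3.10.9. Gene positions come from GENCODE M21 on mm10, matched by symbol for 12436 genes.

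The comparison, the gene lists and the motifs were chosen with earlier results of these data known. Genes were named by rule: Tex10 and Itgb3, up to 12 per direction with the largest called change, at least 5 FPKM on average at the higher day and no overlap between days, up to 4 called per direction from each of 33 lists, and up to 6 per direction for the difference. Unnamed gene models were left out of the choices by largest change, and the choice for the difference also asked for 5 FPKM on average in some group. Other named genes were chosen after their values were seen.

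Alternatives were another pseudocount, no filter or a stricter one, quantile or median-ratio scaling, a replicate block, fewer groups in the fit, no trend in the prior, a fold threshold, and leaving out single libraries.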

Additional observations from a re-analysis of the deposited data

Results flagged for a closer look

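The day changes in OE and EV differed, by the test of the difference itself in limma, for the following 12 genes among others. They are up to 6 in each direction by size, among genes averaging at least 5 FPKM in some EV or OE group. Unnamed gene models were left out, among them Gm21283 with a difference of -2.40 (adjusted p = 0.0479). Values are the OE minus the EV day change in log2(FPKM + 1) units, with Benjamini-Hochberg adjusted p over 12059 genes.

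The change was higher in OE for Gadd45g by 2.50 (SE 0.29, adjusted p = 0.0155), for Gstm3 by 2.03 (SE 0.32, adjusted p = 0.0479) and for Gadd45b by 2.00 (SE 0.24, adjusted p = 0.0165). Gstm3, a glutathione transferase, had 21.02 and 18.8 FPKM in day 6 OE, against 11.9 and 8.92 FPKM in day 2 OE, and 8.02 and 6.89 FPKM in day 6 EV, against 14.8 and 20.98 FPKM in day 2 EV. Tuba3b differed by 1.92 (SE 0.30, adjusted p = 0.0476), and its reads may be shared with the near-identical Tuba3a. Krtdap, a keratinocyte protein, differed by 1.71 (SE 0.25, adjusted p = 0.0339), and Uqcc2, an assembly factor of respiratory complex III, by 1.103 (SE 0.17, adjusted p = 0.0476). Uqcc2 had 302 and 286 FPKM in day 6 OE, against 244 and 192 FPKM in day 2 OE, and 192 and 167 FPKM in day 6 EV, against 276 and 295 FPKM in day 2 EV.

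The change was lower in OE, with a difference of -2.96 (SE 0.24, adjusted p = 0.00149) for Trh and of -2.89 (SE 0.45, adjusted p = 0.0469) for Rpph1. Rpph1 is the RNA of ribonuclease P, which usually carries no poly(A) tail, and it had 24.9 and 14.7 FPKM in day 6 OE, against 18.9 and 24.8 FPKM in day 2 OE, and 35.4 and 24.8 FPKM in day 6 EV, against 4.91 and 2.65 FPKM in day 2 EV. Aoah, an acyloxyacyl hydrolase, differed by -2.51 (SE 0.34, adjusted p = 0.0248) and Enox1, an oxidase of the cell surface, by -2.43 (SE 0.34, adjusted p = 0.0314). Id3 differed by -2.32 (SE 0.13, adjusted p = 0.000117) and Lefty1 by -1.99 (SE 0.26, adjusted p = 0.0229).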

How the results depend on the processing

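Of 3890 calls in OE, all were shared with the fit to the EV and OE groups only and with the fit without D2_dTAG replicate 1, and 3889 with the fit to the groups compared only. Genes higher in OE numbered 2115, against 3956 with EV and OE groups only, 4274 with the groups compared only, 4000 without D2_dTAG replicate 1 and 1092 at a log2 change of at least 1. Genes lower in OE numbered 1775, against 3032, 3275, 3096 and 482 in the same 4 settings. Genes higher in EV numbered 1600, against 3494, 3081, 3549 and 829, and 997 with a filter of 5 FPKM. Genes lower in EV numbered 1263, against 2659, 2314, 2737 and 265. With 1 of the 4 OE libraries left out, counts were 1044 to 1157 for OE higher and 852 to 1349 for OE lower, and with 1 of the 4 EV libraries left out they were 691 to 868 for EV higher and 447 to 701 for EV lower.

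The difference of day changes depended on the setting. The 8 genes higher became 5 with a pseudocount of 0.1, 65 with quantile and 15 with median-ratio scaling, 591 with EV and OE groups only, 3 with no trend, 670 without D2_dTAG replicate 1 and 0 to 1 with 1 of the 8 EV and OE libraries left out. The 20 genes lower became 86 with quantile and 34 with median-ratio scaling, 581 with EV and OE groups only, 4 with no trend, 669 without D2_dTAG replicate 1 and 2 to 6 with 1 of those 8 left out. At an unadjusted p below 0.05 the difference held 1303 genes. The share of OE calls that were higher was 54.4%, against 48.1% with quantile normalization, 48.5% with a pseudocount of 0.1 and 45.2% with a filter of 5 FPKM.

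With the replicate number as a replicate block, OE had 2025 genes higher and 1752 lower, EV 1528 and 1213, and the difference 6 and 15. Deviations of same-numbered libraries correlated by 0.136 in OE and 0.252 in EV, over fewer than 3 pairs, and no label ties a number to a shared culture, so the pairing was not used.

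Over 250 single-gene results, 3542 values under the alternatives were obtained. Of these, 3089 kept their direction and their side of the threshold (or moved around 0 without a call), 414 kept their direction but were no longer called, 39 were newly called and 0 changed direction with a call. The unknown depth limits the genes of few FPKM most, and the causes of these shifts were not tested.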

Other observations

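Gene families outside the lists above, chosen after their values were seen, are given as counts of members called in day 6 OE against day 2 OE. Over all genes tested 17.5% rose and 14.7% fell. Among genes averaging under 5 FPKM over the OE libraries 21.7% rose and 3.81% fell. Among those averaging 20 FPKM or more 12.8% rose and 29.6% fell. Of 14 collagen genes 8 rose and 1 fell (median 0.69), but 5 rose with any 1 OE library left out, and 6 rose and 2 fell after quantile normalization (median 0.31). Col4a2, a partner of Col4a1 in basement membranes, had 14.8 and 16.7 FPKM in day 6 OE, against 0.71 and 0.797 FPKM in day 2 OE, with a log2 change of 3.26 (SE 0.22, adjusted p = 1.78e-05). Of 6 genes for prolyl 4-hydroxylases and lysyl hydroxylases, which modify collagen, 4 rose and 0 fell. Plod2 had 35.2 and 38.6 FPKM in day 6 OE, against 6.12 and 7.49 FPKM in day 2 OE, a change of 2.28 (adjusted p = 0.000447). In EV 9 collagen genes rose and 1 fell. Of 15 genes with an H2 symbol, many of them near-identical copies, 11 rose and 1 fell. Of 8 Hox genes 7 rose and 0 fell, and 4 or 5 rose with 1 OE library left out. Hoxb13, of the posterior end of its cluster, had 9.77 and 11.5 FPKM in day 6 OE, against 0.271 and 0.201 FPKM in day 2 OE, with a log2 change of 3.23 (SE 0.41, adjusted p = 0.000392). Hox genes near 0 at day 2, like this one, can pass the filter through day 6 alone. They have no room to fall, so the absence of falls among Hox genes says little.

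Of 38 proteasome subunit genes 0 rose and 25 fell (median -0.55), and 18 to 23 fell with 1 OE library left out. After quantile normalization 0 proteasome genes rose and 22 fell (median -0.27). Psmb10, an inducible catalytic subunit, had 18.4 and 17.1 FPKM in day 6 OE, against 50.6 and 54.4 FPKM in day 2 OE, a change of -1.51 (adjusted p = 0.000659). Of 75 mitochondrial ribosomal protein genes 0 rose and 36 fell, and after quantile normalization 4 rose and 26 fell. Of these 75, 17 to 33 fell with 1 OE library left out, with 17 both without day 2 OE replicate 1 and without day 6 OE replicate 2. Of 18 cytosolic aminoacyl-tRNA synthetase genes 1 rose and 14 fell, and in EV 0 rose and 4 fell, a difference between cell groups that was not tested over the family. Leaving out 1 OE library gave 0 higher and 8 to 13 lower in OE, the fewest without day 6 OE replicate 2 and then 9 without day 2 OE replicate 1. Of 84 cytosolic ribosomal protein genes 1 rose and 25 fell, but after quantile normalization 18 rose and 14 fell, so their direction depends on the scaling. The share of these genes that fell is close to that of all genes averaging 20 FPKM or more (29.6%). Without 1 of the OE libraries 0 rose and 7 to 23 fell, with 7 both without day 2 OE replicate 1 and without day 6 OE replicate 2, and 14 without day 6 OE replicate 1. Annexin genes went both ways: Anxa2 had 142 and 162 FPKM in day 6 OE, against 15.8 and 20.3 FPKM in day 2 OE, with a log2 change of 3.01 (SE 0.15, adjusted p = 4.54e-06), and Anxa1 had 0.801 and 1.43 FPKM in day 6 OE, against 9.65 and 8.04 FPKM in day 2 OE, with a log2 change of -2.23 (SE 0.20, adjusted p = 6.22e-05).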
